A study of Homo sapiens with 12 samples.

Results

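The 9 genes FANCD2, FANCI, FANCA, FANCM, BRCA1, PALB2, BRCA2, BRIP1 and BLM of the Fanconi anemia and homologous recombination pathways were followed through NELFA and YAP knockdown. They were found by gene symbol in the deposited count table, which gave 9 of the 58051 genes listed, each on 1 row. FANCD2 was chosen by a measured value, its lower normalized count in the double knockdown than in siControl, so its values in comparisons with that group are described without a test. The other 8 were taken as genes that work with FANCD2, with earlier results of these libraries already known. All 9 were counted in all 12 libraries, from 127 to 2362 reads each, and all 9 passed the filter on low counts in each comparison.

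The Fanconi anemia pathway repairs crosslinks between the strands of DNA. A core complex attaches ubiquitin to the FANCD2 and FANCI pair, which then directs nucleases and homologous recombination to the lesion, and BRCA1, PALB2 and BRCA2 act together in the recombination step. Transcripts of many genes of this kind are known to be more abundant in proliferating cells around S phase, and inherited loss of several of them predisposes to breast cancer.

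The RNA came from MDA-MB-231, an established triple-negative breast cancer cell line of mesenchymal type, transfected with pools of small interfering RNA. The 4 groups held 3 libraries each. The siControl cells received a non-targeting pool, siNELFA cells a pool against NELFA (a subunit of the negative elongation factor, which holds RNA polymerase II near promoters), siYAP cells a pool against YAP1 (the transcriptional coactivator at the end of the Hippo pathway), and siNELFA+siYAP cells both pools. The labels give 50 to 100 nM siRNA and RNA taken at 48 and 72 h without saying which library is which. For the RNA that was sequenced, the methods of the study name 72 h. The labels title the libraries replicates 1 to 3 in each group. The methods of the study describe independent biological replicates, but the labels do not say that they were separate cultures and name the double knockdown libraries N1 with an index where the other groups have N1, N2 and N3, so p-values measure only the spread between these libraries, which may be technical.

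Each library held 9608145 to 18803104 counted reads. NELFA ran from 25.3 to 28.1 CPM (normalized counts, scaled by library size and TMM factors) in siControl, from 7.13 to 9.88 with siNELFA, from 22.3 to 33.2 with siYAP and from 6.33 to 8.13 with both pools. YAP1 ran from 248 to 302 CPM in siControl, as against from 249 to 290 with siNELFA, from 37.8 to 45.4 with siYAP and from 39.998 to 43.8 with both pools, so each pool lowered its own target in every library. The replicate 1 libraries of siControl, siNELFA and siYAP stood apart from replicates 2 and 3. Over genes averaging at least 50 counts, the chi-square statistic per degree of freedom between replicate 1 and the others was 103 to 150 in these 3 groups, against 14.0 to 23.6 between replicates 2 and 3 and 2.86 to 18.4 within siNELFA+siYAP, where 1 is sampling noise alone. CDH1, the epithelial cadherin that this line largely lacks, had 230, 599 and 169 reads in those replicate 1 libraries and 0 to 17 in the other 9. Of 12 epithelial markers chosen after CDH1 was seen, 8 to 10 were detected per library, with a summed level of 563 to 609 CPM in siControl, as against 654 to 793 with siNELFA, 589 to 704 with siYAP and 627 to 634 with both pools, while ESRP1 was at 0 in every library and GRHL2 at 0 in all but the same 3 replicate 1 libraries, where it had 2 reads. VIM and CD44, which mark the mesenchymal state, were high throughout (10961 to 32883 and 13293 to 25034 reads), ALB of hepatocytes was at 0 and PTPRC of leukocytes at 0 to 4 reads. PECAM1 of endothelium, however, had 30 to 85 reads in every library. Of the receptor genes taken beforehand as low in this line, ESR1 had 0 to 6 and PGR 0 to 4 reads, but ERBB2 had 422 to 1474. The part of these differences in the results below was not tested.

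The genes lie on 6 chromosomes of GRCh38 (GENCODE annotation, version 44). FANCD2 (ENSG00000144554) spans chr3:10026370-10101932 on the plus strand. FANCI (ENSG00000140525, chr15:89243945-89317261) and BLM (ENSG00000197299, chr15:90717346-90816166) are both on the plus strand and 1.4 Mb apart. FANCA (ENSG00000187741, chr16:89726683-89816977) and PALB2 (ENSG00000083093, chr16:23603160-23641321) are on the minus strand of chromosome 16, and BRCA1 (ENSG00000012048, chr17:43044295-43170245) and BRIP1 (ENSG00000136492, chr17:61679139-61863559) on the minus strand of chromosome 17. FANCM (ENSG00000187790) spans chr14:45135930-45200890 and BRCA2 (ENSG00000139618) chr13:32315086-32400268, both on the plus strand. The 9 genes cover 38.2 kb (PALB2) to 184.4 kb (BRIP1), all more than the median of 27.4 kb over 20046 protein-coding genes. Other annotated genes overlap some of them. POLG lies against FANCI and ZNF276 against FANCA on the opposite strand, with 16673 and 5393 reads over the 12 libraries. BRCA1 is overlapped by NBR2 (1798 reads) on the opposite strand and by a non-coding RNA gene (ENSG00000267002, 3701 reads) on the same strand. The libraries were stranded, but whether the counting used the strand is not given in the sources used here, so the values of FANCI, FANCA and BRCA1 are uncertain to that extent. For BRCA1 the strand would not separate it from the same-strand gene. The near copy FANCD2P2 and the antisense gene FANCD2OS held only 19 and 6 reads in all 12 libraries together.

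Promoter sequences (RefSeq, GRCh38.p14, 250 bases before to 50 after the start of the transcript) were given for 8 of the 9 genes, all but FANCI. They were searched on both strands for 4 short words known from promoters of cell cycle genes, GCGGGAA and TTGGCGC (forms of the E2F site), TTTGAA (the cell cycle homology region) and CCAAT (the CCAAT box), none of which contains another. The word GCGGGAA was in 4 of the 9 promoters given for these 8 genes, against 6.55% of all 35116 promoters. These 4 promoters are shown because FANCD2, BRCA1, BRIP1 and BLM are also among the genes that were lower under siNELFA in the paired fit below, a choice made on these data. BRCA2, without the word, and FANCI, with no promoter given, were lower in that fit too. FANCA, FANCM and PALB2, also without it, were not called. Any link between the word and the levels was not tested. The capitals mark the word, which begins at position -2 in FANCD2, -47 in BRCA1, 3 in BRIP1 and -74 and 4 in BLM. Positions are counted forward from the first base of the transcript and backward from the base before it, with no position 0.
FANCD2, plus strand, chr3:10026187-10026486: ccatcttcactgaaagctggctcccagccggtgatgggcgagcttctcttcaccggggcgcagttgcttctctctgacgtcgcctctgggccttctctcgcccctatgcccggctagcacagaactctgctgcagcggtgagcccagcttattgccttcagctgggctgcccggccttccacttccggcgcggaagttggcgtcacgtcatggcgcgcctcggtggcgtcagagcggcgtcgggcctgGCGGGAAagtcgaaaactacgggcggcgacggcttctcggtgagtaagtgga
BRCA1, minus strand, chr17:43125315-43125614: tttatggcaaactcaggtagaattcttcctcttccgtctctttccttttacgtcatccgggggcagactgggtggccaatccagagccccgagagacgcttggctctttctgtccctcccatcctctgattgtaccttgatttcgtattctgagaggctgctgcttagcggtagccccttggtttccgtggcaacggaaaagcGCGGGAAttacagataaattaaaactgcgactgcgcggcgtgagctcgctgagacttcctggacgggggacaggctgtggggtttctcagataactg
BRIP1, minus strand, chr17:61863479-61863778: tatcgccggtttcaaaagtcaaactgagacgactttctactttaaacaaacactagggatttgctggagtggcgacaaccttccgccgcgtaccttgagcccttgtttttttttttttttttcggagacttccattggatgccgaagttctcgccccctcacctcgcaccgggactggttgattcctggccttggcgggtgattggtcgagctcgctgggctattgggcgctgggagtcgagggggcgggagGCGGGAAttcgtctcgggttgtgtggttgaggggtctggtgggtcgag
BLM, plus strand, chr15:90717096-90717395: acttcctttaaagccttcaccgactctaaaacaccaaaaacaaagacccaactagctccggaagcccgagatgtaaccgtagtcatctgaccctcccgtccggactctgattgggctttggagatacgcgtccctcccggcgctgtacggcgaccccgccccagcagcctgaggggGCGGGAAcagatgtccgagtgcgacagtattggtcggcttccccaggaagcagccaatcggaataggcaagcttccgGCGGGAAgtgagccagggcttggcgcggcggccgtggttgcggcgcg
BRCA1 has a second annotated start with no such word in its window. TTGGCGC was in the promoters of BLM and FANCA (3.04% of all), TTTGAA in that of BRIP1 (15.2%) and CCAAT in those of FANCA, FANCM, BRCA1, PALB2, BRIP1 and BLM (34.6%). BRCA2 held none of the 4 words in this window. A match is a run of letters and not a measured binding site.

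Levels of different genes were compared per transcript length. In the deposited TPM of siControl, FANCI had 48.4 ± 17.02 (SD, n = 3) and FANCA 47.5 ± 13.5, followed by BRCA1 with 29.5 ± 11.6 and FANCD2 with 22.7 ± 5.88. BRIP1 (14.2 ± 3.81), BLM (11.96 ± 3.87), PALB2 (8.99 ± 2.29), BRCA2 (8.50 ± 1.48) and FANCM (7.06 ± 1.31) came after them. Neighbours in this order overlapped between libraries in every case. FANCA was first and FANCI next with siNELFA and with both pools, and BLM came before BRIP1 in the double knockdown, but otherwise the order of the group means was the same in all 4 groups.

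FANCD2, which is ubiquitinated together with FANCI when a replication fork meets a crosslink, was chosen for its lower level in the double knockdown. Its place among the 9 genes there is not read, and its difference in siNELFA shares the siControl libraries of that choice. Its level was 83.0, 92.2 and 78.1 CPM in siControl replicates 1 to 3, as against 31.9, 60.7 and 38.8 with siNELFA, 50.7, 82.7 and 58.7 with siYAP and 39.2, 37.5 and 38.6 with both pools. Every library with siNELFA, alone or with siYAP, was below every siControl library, while siYAP overlapped siControl through its replicate 2. The group means were 51.9% of siControl with siNELFA, 75.9% with siYAP and 45.5% with both pools. In the deposited TPM, which were estimated separately, siNELFA replicate 2 (18.1) lay above siControl replicate 3 (16.6), so that siNELFA and siControl overlapped there.

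FANCI, the partner of FANCD2, had 74.6, 122.9 and 123 CPM in siControl, as against 38.5, 84.7 and 86.6 with siNELFA, 53.5, 114.6 and 108 with siYAP and 68.9, 71.4 and 76.8 with both pools. Its replicate 1 library was the lowest in each of the first 3 groups, at 45.0% to 60.7% of the mean of replicates 2 and 3, and the knockdowns overlapped siControl only through siControl replicate 1. The core complex subunit FANCA ran from 42.6 to 102 CPM in siControl, as against from 42.3 to 82.3 with siNELFA, from 43.6 to 96.0 with siYAP and from 63.8 to 70.7 with both pools, so that all groups overlapped. FANCM, the translocase that anchors the core complex on DNA, had 23.1, 25.9 and 23.2 CPM in siControl against 13.9, 17.8 and 18.4 with siNELFA, 12.02, 22.4 and 21.4 with siYAP, and 15.4, 15.3 and 14.6 with both pools. In CPM, FANCM was the only one of the 9 whose siControl libraries lay above all libraries of each knockdown. In the deposited TPM, FANCM reached 5.69 with siNELFA and 6.09 with siYAP, above its lowest siControl library at 5.60, so both overlapped siControl there.

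Among the recombination genes, BRCA1, a ubiquitin ligase subunit that promotes end resection, had 61.0, 109 and 77.3 CPM in siControl, as against 28.9, 80.0 and 58.5 with siNELFA, 45.3, 99.9 and 78.8 with siYAP and 48.0, 51.0 and 56.0 with both pools. PALB2, which joins BRCA1 to BRCA2, had 20.8 to 29.2 CPM in siControl, as against 17.04 to 24.5 with siNELFA, 17.1 to 27.0 with siYAP and 21.1 to 24.3 with both pools. BRCA2, a DNA-binding mediator of recombination, had 58.4, 83.4 and 70.7 CPM in siControl, as against 24.05, 59.6 and 45.9 with siNELFA, 22.4, 72.6 and 66.6 with siYAP and 45.3, 40.4 and 47.0 with both pools. For BRCA1 and BRCA2 the double knockdown libraries were all below the lowest siControl library, whereas siNELFA and siYAP overlapped siControl.

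Of the helicases, BRIP1, the BRCA1-associated helicase, had 51.0, 71.6 and 65.3 CPM in siControl, as against 21.0, 49.8 and 43.7 with siNELFA, 27.1, 60.4 and 52.9 with siYAP and 36.6, 37.0 and 35.5 with both pools. All siNELFA and all double knockdown libraries were below all siControl libraries for BRIP1. BLM, a RecQ helicase that dissolves joined recombination intermediates, had 24.4, 47.8 and 41.0 CPM in siControl, as against 13.0, 30.6 and 28.7 with siNELFA, 16.8, 39.5 and 35.5 with siYAP and 21.6, 23.5 and 27.1 with both pools. Its siControl replicate 1 was inside the range of the other groups.

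**Figure D1:**
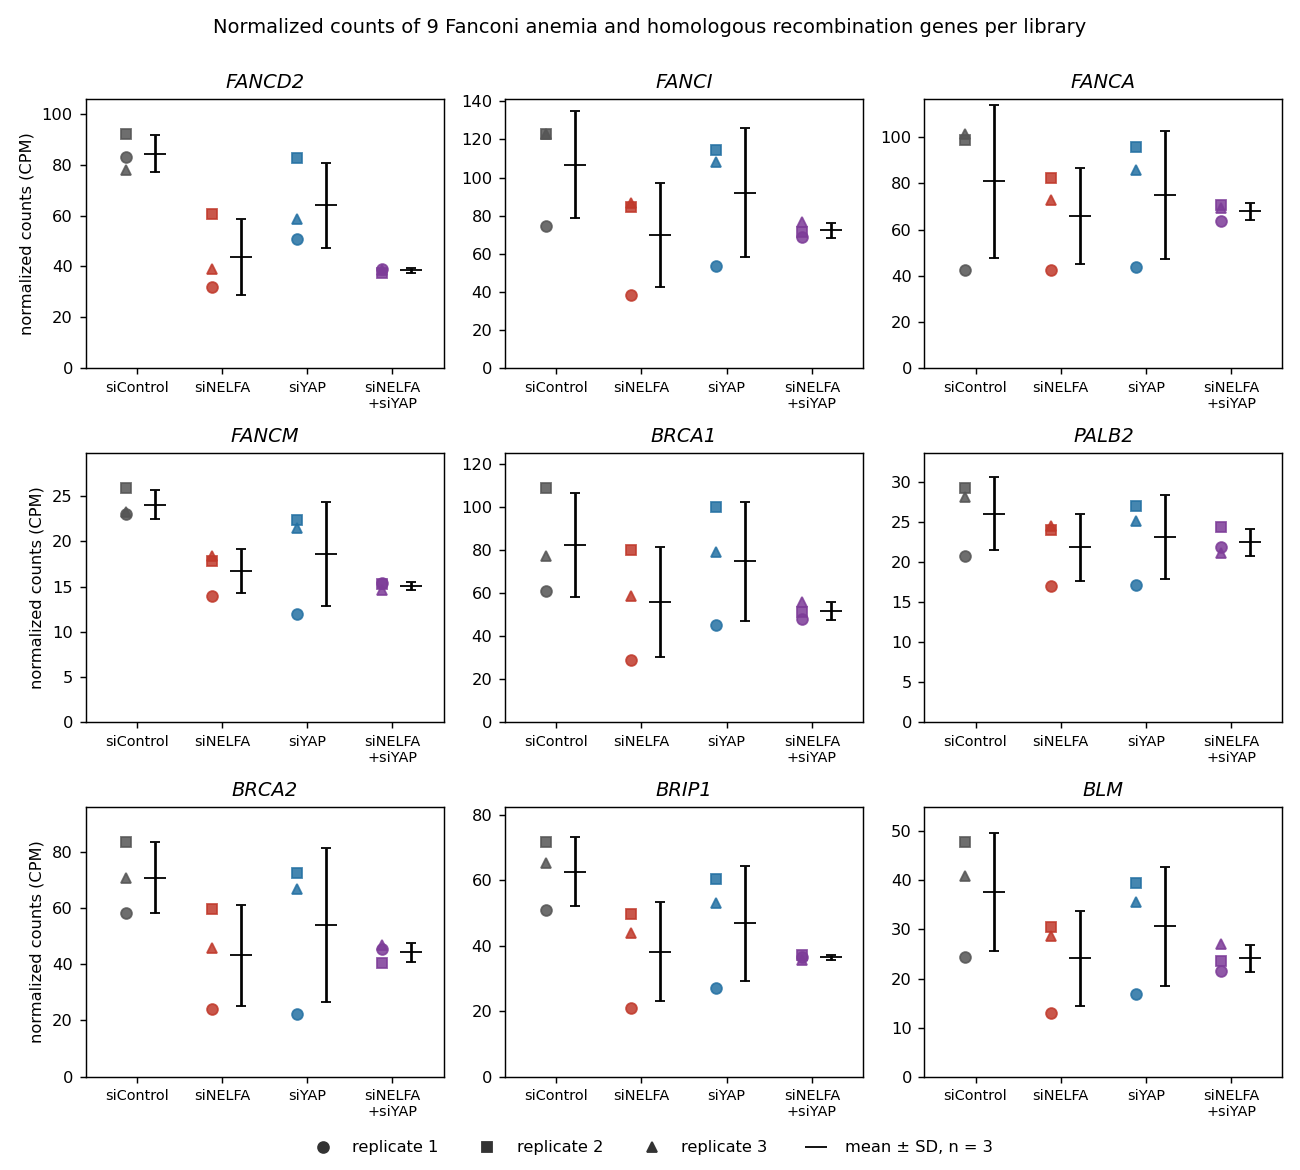
Normalized counts (CPM, vertical axis from 0) of the 9 genes in each library, with 1 panel per gene, the 4 groups along the horizontal axis, marker shape for the replicate number and bars for the mean ± SD of 3 libraries. Replicate 1 is the lowest library for 8 of 9 genes in siControl and for 9 of 9 in siNELFA and siYAP, and the siNELFA+siYAP libraries lie close together.

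Replicate 1 was the lowest library for 8 of the 9 genes in siControl, FANCD2 being the exception, and for 9 of 9 in siNELFA and in siYAP, but for 4 of 9 in siNELFA+siYAP. In siControl it held 42.5% (FANCA) to 97.4% (FANCD2) of the mean of replicates 2 and 3, in siNELFA 41.7% (BRCA1) to 77.1% (FANCM) and in siYAP 32.2% (BRCA2) to 71.8% (FANCD2). In siNELFA+siYAP the share was 85.3% to 104%. The coefficient of variation of the 9 genes had a median of 17.7% in siControl, 38.9% with siNELFA, 36.8% with siYAP and 5.55% with both pools. Replication genes moved with these libraries, since all 40 genes of a replication and S-phase list were lower in replicate 1 than in the mean of replicates 2 and 3 in siControl, siNELFA and siYAP (median log2 ratio -1.24, -1.40 and -1.44), against 25 of 40 in the double knockdown (median -0.05). The summed level of that list was 1420, 3554 and 3165 CPM in siControl, as against 1017, 3003 and 2594 with siNELFA, 1193, 3348 and 2931 with siYAP and 2180, 2211 and 2252 with both pools. The part of this shift in the values of the 9 genes was not tested, and in bulk RNA fewer cells in S phase and less of these transcripts per cell cannot be told apart. Deviations of same-numbered libraries also correlated across siControl, siNELFA and siYAP, which the shared shift of replicate 1 alone could give. Comparisons among these 3 groups are therefore given both without and with the number as a block.

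With siNELFA alone, which asks what loss of the pausing factor does while YAP is present, the 9 genes all had lower fitted levels than in siControl. The log2 fold changes ran from -0.25 for PALB2 to -0.94 for FANCD2, with a median of -0.60 against 8.0e-05 over all 17727 genes tested. Each of the 9 was lower in all 3 pairs of libraries with the same number, which 22.4% of all genes were. Without the block, none of the 9 passed an adjusted p under 0.05 by edgeR or by DESeq2 (0.00564% and 0.152% of all genes did). By edgeR 2 of them, FANCD2 and FANCM, had an unadjusted p under 0.05, as did 791 of all 17727 genes. With the replicate block, 6 of the 9 fell, where 2.45% of all genes were called lower. By this edgeR fit FANCD2 fell by 0.98 on the log2 scale (SE 0.14, adjusted p = 0.00275), FANCI by 0.65 (SE 0.12, adjusted p = 0.00978) and BRCA1 by 0.62 (SE 0.14, adjusted p = 0.0237). BRCA2 and BRIP1 fell by 0.77 each (SE 0.15, adjusted p = 0.0126 and 0.0135) and BLM by 0.67 (SE 0.14, adjusted p = 0.0185). The other 3 were FANCM at -0.52 (adjusted p = 0.0730), FANCA at -0.25 (adjusted p = 0.265) and PALB2 at -0.25 (adjusted p = 0.363). In CPM, all siNELFA libraries lay below all siControl libraries for FANCD2, FANCM and BRIP1, as they did for 6.08% of all genes. The siControl libraries here are those against which FANCD2 was selected in the double knockdown, so its fall in siNELFA shares that side of the comparison.

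The size of the difference varied with the pair. For FANCD2 the log2 ratio of siNELFA to siControl was -1.38 in replicate 1, -0.60 in replicate 2 and -1.01 in replicate 3, and for BRCA2 -1.28, -0.48 and -0.62. BRIP1 had -1.28, -0.52 and -0.58, and BRCA1 -1.08, -0.44 and -0.40. FANCA went the other way, with its ratio nearest to 0 in replicate 1 (-0.01) and farthest in replicate 3 (-0.48), and PALB2 had -0.29, -0.29 and -0.20. Without the replicate 1 pair the blocked fit called 8 of the 9 genes lower, all but PALB2 (7.69% of all genes), without replicate 2 it called 5, namely FANCD2, FANCI, BRCA1, BRCA2 and BRIP1 (1.70%), and without replicate 3 the same 5 and BLM (1.26%). FANCD2 fell by 0.79 on the log2 scale without replicate 1 in the blocked fit.

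**Figure D2:**
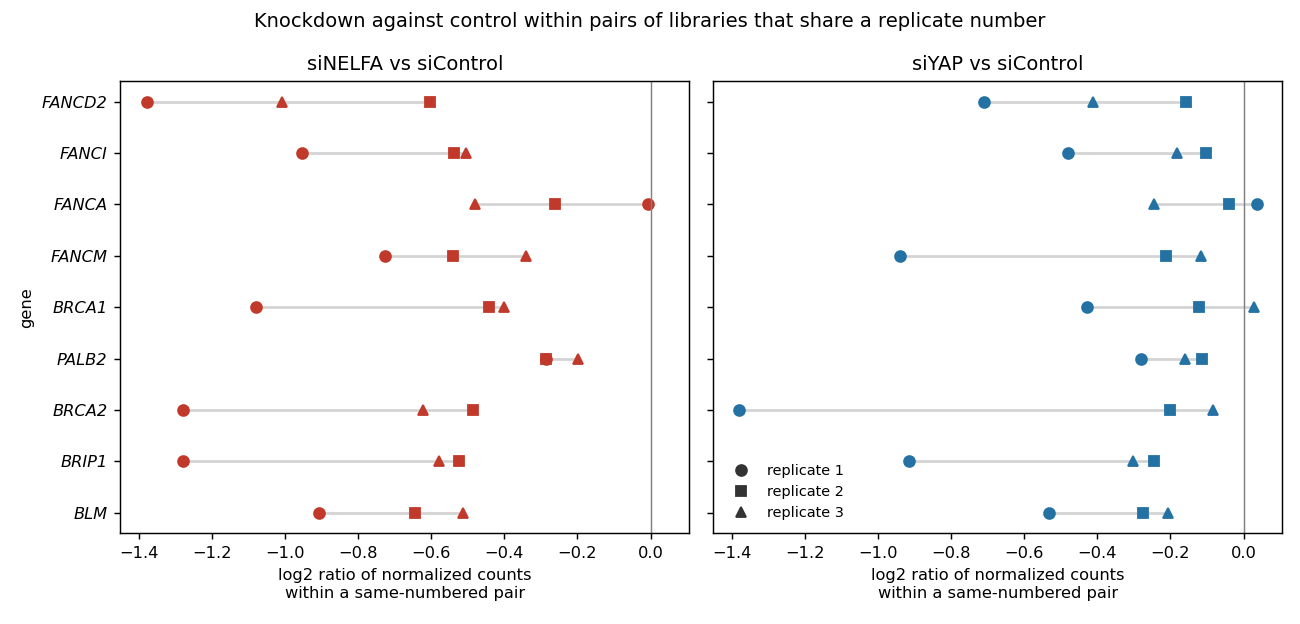
Log2 ratio of normalized counts between knockdown and control libraries of the same replicate number (horizontal axis, 0 is no difference) for each gene, siNELFA on the left and siYAP on the right, with marker shape for the replicate number. All 27 ratios lie below 0 for siNELFA, from -1.38 to -0.01, and 25 of 27 for siYAP, where replicate 1 is the lowest for 8 of the 9 genes.

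With siYAP alone, the differences from siControl were smaller and none passed the test. The log2 fold changes were -0.39 (SE 0.22) for FANCD2, -0.20 for FANCI, -0.09 for FANCA, -0.36 for FANCM, -0.13 for BRCA1, -0.16 for PALB2, -0.38 for BRCA2, -0.41 (SE 0.31) for BRIP1 and -0.29 for BLM. Neither edgeR without the block (0.00578% of all genes called), nor DESeq2 (0.0116%), nor edgeR with the block (0.0173% called lower) called any of the 9. By edgeR 0 had an unadjusted p under 0.05 without the block and 3 with it. Of all 17296 genes tested, 225 and 1575 did. FANCD2, FANCI, FANCM, PALB2, BRCA2, BRIP1 and BLM were lower in all 3 same-numbered pairs (20.4% of all genes), while FANCA and BRCA1 were lower in 2 of 3. Only FANCM had all siYAP libraries below all siControl libraries in CPM, as 4.20% of all genes did. BRCA2 showed the widest spread, with log2 ratios of -1.38, -0.20 and -0.08 in the 3 pairs. Without siYAP replicate 1 the log2 fold changes of FANCI, FANCA, BRCA1, PALB2 and BLM were between 0.0021 and 0.18.

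In the double knockdown against siControl, the contrast on which FANCD2 was chosen, the differences are a description. The log2 fold changes were -1.13 for FANCD2, -0.56 for FANCI, -0.25 for FANCA, -0.67 for FANCM, -0.67 for BRCA1, -0.22 for PALB2, -0.68 for BRCA2, -0.78 for BRIP1 and -0.65 for BLM. Of the 8 genes other than FANCD2, 0 were past the adjusted threshold (0.428% of all genes were), and nothing is read from the place of FANCD2, since this contrast chose it. FANCD2, FANCM, BRCA1, BRCA2 and BRIP1 had all 3 double knockdown libraries below all siControl libraries (14.6%). The double knockdown libraries were below siControl replicates 2 and 3 for 9 of 9 genes and below siControl replicate 1 for those 5. Without the replicate 1 libraries, 7 of those 8 were past it, all but PALB2, where 17.9% of all genes were. That fit sets double knockdown libraries named N1 against siControl libraries named N2 and N3. The knockdown and a difference between the named sets cannot be told apart in it. Without siControl replicate 1 alone all 8 were, where 24.4% of all genes were, and without siControl replicate 2 or any one of the double knockdown libraries 0 were, where at most 0.0113% of all genes were.

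**Figure D3:**
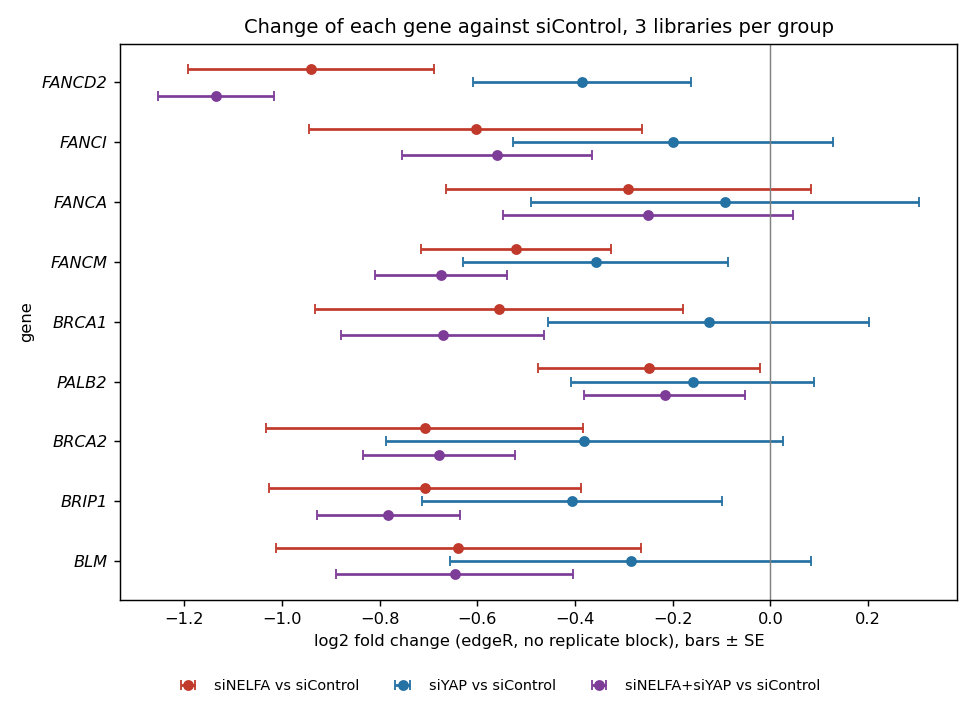
Log2 fold change of each gene against siControl (horizontal axis, edgeR without the replicate block, bars are ± SE) in siNELFA, siYAP and siNELFA+siYAP, each from 3 libraries against the same 3 siControl libraries. FANCD2, which was chosen on the contrast of both pools with siControl, is at -0.94 with siNELFA and -1.13 with both pools. The siYAP values lie nearest to 0 for every gene.

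Set directly against each other, siNELFA gave lower levels than siYAP for several of the genes, in a comparison that uses neither siControl nor the double knockdown. With the replicate block, 5 of the 9 were lower in siNELFA (7.44% of all genes were called lower). FANCD2 was lower by a log2 fold change of -0.57 (SE 0.10, adjusted p = 0.000321), BRCA1 by -0.46 (SE 0.10, adjusted p = 0.00214) and FANCI by -0.41 (SE 0.09, adjusted p = 0.00307), while BLM at -0.35 (adjusted p = 0.0495) and BRIP1 at -0.31 (adjusted p = 0.0489) were close to the threshold. FANCD2, FANCI, FANCA, BRCA1, PALB2, BRIP1 and BLM were lower in all 3 pairs (22.9% of all genes). BRCA2 was at -0.27 (adjusted p = 0.108), FANCA at -0.18 (0.224), FANCM at -0.14 (0.596) and PALB2 at -0.08 (0.737). FANCD2, FANCI and BRCA1 were also called in the blocked fit without replicate 2 (7.15%) and without replicate 3 (2.68%), and without replicate 1 these 3 and BRCA2 and BLM (6.97%). Without the block edgeR and DESeq2 called 0 of the 9 (0.0116% and 0.446% of all genes). By edgeR 0 of the 9 were at an unadjusted p under 0.05, where 972 of all 17257 genes were.

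Adding siNELFA to siYAP, all 9 genes had lower fitted levels in the double knockdown than in siYAP, from -0.05 (PALB2) to -0.75 (FANCD2, given without a test) on the log2 scale, and their median was -0.36. None passed the adjusted threshold by edgeR (0.0350% of all genes). BRCA1 had -0.54 (SE 0.26, adjusted p = 0.362). Of the 8 genes other than FANCD2, 0 had an unadjusted p under 0.05 by edgeR, as against 2663 of all 17167 genes. DESeq2 called 0 of these 8, where it called 4.49% of all genes. Without the replicate 1 libraries, 6 of those 8 passed (7.70% of all genes), namely BLM at -0.57 (adjusted p = 0.0371), BRCA1 at -0.74 (adjusted p = 0.0148), BRCA2 at -0.67 (adjusted p = 0.0136), BRIP1 at -0.65 (adjusted p = 0.0151), FANCM at -0.55 (adjusted p = 0.0498) and FANCI at -0.59 (adjusted p = 0.0109), and FANCA at -0.38 (adjusted p = 0.0520) and PALB2 at -0.20 (adjusted p = 0.409) did not. Here too, double knockdown libraries named N1 are set against siYAP libraries named N2 and N3. The added siNELFA and a difference between the named sets cannot be told apart in these calls.

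Adding siYAP to siNELFA left the 9 genes on both sides of no difference. The log2 fold changes of the double knockdown against siNELFA ran from -0.18 for FANCD2 (SE 0.22) to 0.06 for FANCI (SE 0.28), with 4 of 9 lower and a median of 0.0051. No gene of the 9 was called by edgeR (0.00573% of all genes) or by DESeq2 (0.258%). By edgeR 0 had an unadjusted p under 0.05, as against 1156 of all 17463 genes. The double knockdown libraries were above siNELFA replicate 1 for 9 of 9 genes, below siNELFA replicate 2 for 8 and below siNELFA replicate 3 for 7, so the comparison of means averages over libraries on opposite sides. Without siNELFA replicate 1 the values of FANCI, FANCA, PALB2, BRCA2 and BLM were -0.10 to -0.29. The interaction term, which asks whether the double knockdown differs from the sum of both single effects, was 0.02 (BRCA1) to 0.42 (BRCA2) on the log2 scale, with a median of 0.21. It passed for 0 of the 9 (0% of all 18525 genes), and 0 of them had an unadjusted p under 0.05 by edgeR (326 of all genes did). The SE of these terms was 0.30 to 0.55. Without the replicate 1 libraries 7 of the 9 terms were below 0, in a fit where only the double knockdown libraries carried N1 names.

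Of 68 further Fanconi anemia and recombination genes, 66 could be tested, since RAD54B and ATRIP are listed under several identifiers. In siNELFA against siControl 48 of the 66 had lower fitted levels, with a median log2 fold change of -0.16 beside -0.60 for the 9, a difference that was not tested, and 0 were called, with or without the block. Among partners of the core complex (11 genes, 7 lower) the values ran from -0.38 for FANCB to 0.17 for CENPX, and among genes of FANCD2 ubiquitination and its removal (4 genes, 3 lower) from -0.31 for USP1, which removes the ubiquitin, to 0.04 for WDR48, its cofactor. Nucleases and translesion partners ran from -0.51 for EME1 to 0.21 for ERCC1, and the partners of BRCA1 from -0.36 for BARD1, with which BRCA1 forms its ligase, to 0.25 for BABAM1. All 5 end resection genes were lower, from -0.07 for NBN to -0.47 for EXO1, as were the 3 subunits of the single-strand binding protein RPA, from -0.09 for RPA2 to -0.22 for RPA3. Of the partners of BLM and other RecQ genes, RMI2 had -0.52 and RECQL5 0.18, and of the checkpoint kinases and their partners CHEK1 had -0.23 and ATR 0.0042. In the blocked comparison of siNELFA with siYAP, 2 of the 66 fell, a smaller share than the 7.44% of all genes called lower in that fit, and they were TONSL at -0.51 (adjusted p = 0.00216) and RAD51D at -0.45 (adjusted p = 0.0309). In siYAP against siControl 45 of 66 were lower (median -0.09) and 0 were called, and in the double knockdown 49 of 66 (median -0.26), with 0 called by edgeR.

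Replication and mitotic genes also had lower fitted levels in siNELFA. In the blocked fit of siNELFA against siControl, 2.45% of all genes were called lower. Of 40 replication and S-phase genes 37 were lower (median -0.34), and 10 fell in the blocked fit, among them GINS2 of the replicative helicase (-1.20, adjusted p = 0.00473) and MCM10 (-0.78, adjusted p = 0.0129). All 26 mitotic genes were lower (median -0.41), and 11 fell in the blocked fit, among them CDC20, the activator of the anaphase-promoting complex (-0.98, adjusted p = 0.00217), the spindle motor KIF11 (-0.74, adjusted p = 0.00342) and the checkpoint kinase BUB1B (-0.78, adjusted p = 0.00445). In 37 genes of other repair pathways 26 were lower (median -0.13) and 2 fell in the blocked fit, PARP1 (-0.52, adjusted p = 0.0104) and DDB2 (-0.63, adjusted p = 0.0418). The double knockdown had medians of -0.36, -0.64 and -0.13 for these 3 lists against siControl. The median of the 9 genes was -0.67 there. It is a description and is not ranked against the lists, since that contrast chose FANCD2 and the others were taken with earlier results known. The part of replication and mitotic transcripts as a whole in the lower levels of the 9 was not tested.

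**Figure D4:**
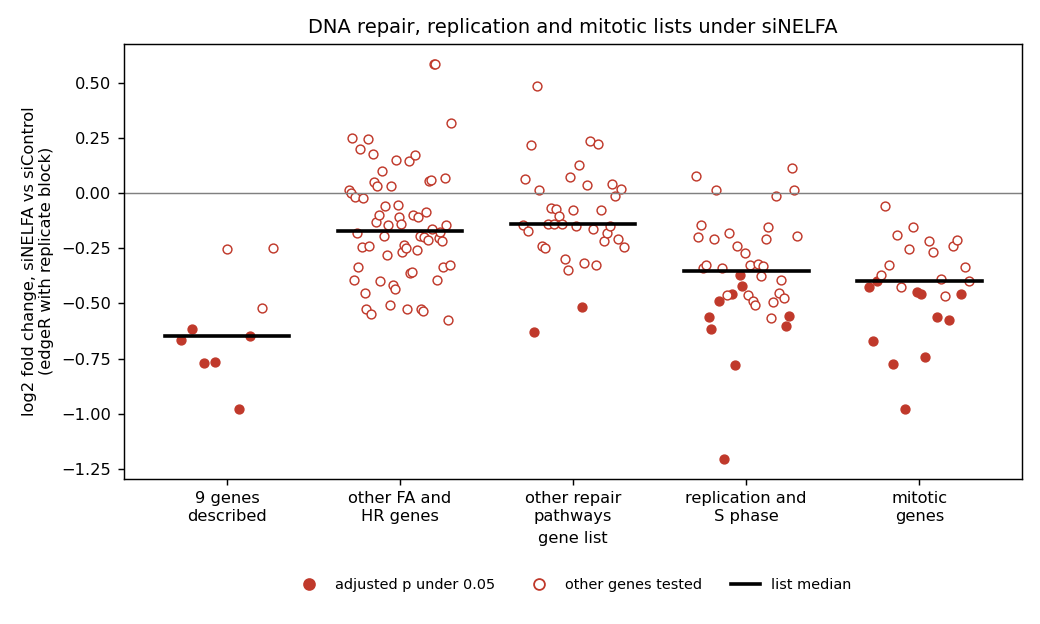
Log2 fold change in siNELFA against siControl (vertical axis, edgeR with the replicate block) for each tested gene of 5 lists, with filled points at an adjusted p under 0.05 and a bar at the list median. The medians are -0.65 for the 9 genes described, -0.40 for the mitotic list and -0.36 for the replication list. They are -0.17 for the other Fanconi anemia and recombination genes and -0.14 for the other repair genes. FANCD2 was chosen against these siControl libraries and the other members with earlier results known, so the 9 are not ranked against the lists.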

How the data were processed

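RNA of 12 libraries was sequenced as total RNA after ribosomal depletion. The deposited count table holds unnormalized whole reads, which the authors obtained with STAR on GRCh38 (Ensembl release 87) and featureCounts. The deposited TPM values, estimated by the authors per library, served for levels between genes and as an alternative. The FPKM table was not used, since it rescales to the TPM values, nor were results of the authors' own DESeq2 comparisons.

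Groups were compared on the counts with the quasi-likelihood test of edgeR 4.0.16 (TMM factors, filterByExpr with 10 counts, a total of 15 and a proportion of 70%) in R 4.3.3, with the 6 libraries of both groups, and Benjamini-Hochberg adjustment over all tested genes. CPM values are counts scaled by library size and TMM factors. Each SE was taken as the absolute log2 fold change over the root of its F statistic. The replicate number was used as a block for siControl, siNELFA and siYAP, since deviations of same-numbered libraries from their group means correlated by 0.650 to 0.889 over 12971 genes, and by -0.0512 to 0.0277 with the double knockdown. Deviations from a group mean cancel within the group, so the shift that the replicate 1 libraries share also raises the values of replicates 2 and 3. These values therefore do not show by themselves that replicates 2 and 3 are paired. Genes are not independent in these correlations.

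The members and lists were chosen with earlier results of these data known, and the epithelial list after CDH1 was seen. Named are all 9 members, the list genes with the smallest adjusted p past 0.05 (up to 10 per comparison), the lowest and highest gene of each role of the pathway (1 role is not reported here), the 5 genes most like FANCD2, both siRNA targets, and copies and overlapping genes. Outside this rule, RAD51D, TP53BP1, MSH6, ERCC5, ERCC2 and the markers of other cell types were named, the first 5 after their values were seen. The alternatives tried were DESeq2 1.42.0, a change of scaling to RLE, 2 other filters, all libraries in one fit, the replicate block, limma 3.58.1 on log2(TPM + 1) and log2(TPM + 0.1), and leaving out libraries. The blocked fits without 1 replicate number were added after the data were seen. The tests were first run on simulated data.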

Additional observations from a re-analysis of the deposited data

How the results depend on the processing

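Most values kept their direction, but counts of called genes moved with the libraries and the block. Over 1071 alternative values of the 9 genes, 59 changed sign, of which 0 were in siNELFA against siControl and 0 in the double knockdown against siControl. With the replicate block in place of none, 6 of the 9 were called in siNELFA against siControl (5.21% of all genes). In siNELFA against siYAP 5 of the 9 were (15.8%). Of the other pathway genes 0 and 2 were called in these 2 comparisons. In the double knockdown against siControl 0 of the 9 were called with the block (0.0114%). The block changed no call in siYAP against siControl, in the double knockdown against either single knockdown or in the interaction. In the blocked fits without replicate 1, 2 and 3, 8, 5 and 6 of the 9 and 14, 0 and 1 of the other genes were called in siNELFA against siControl (15.7%, 3.56% and 3.65% of all genes), and 5, 3 and 3 of the 9 and 4, 3 and 2 of the others in siNELFA against siYAP (14.8%, 14.9% and 5.91%). In these, FANCA in siYAP against siControl was 0.013 without replicate 3.

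In the double knockdown against siControl, edgeR called 0 of the 8 genes other than FANCD2 and 0 of the other pathway genes. Counts over all 9 include FANCD2, the gene chosen on this contrast, and are a description only. DESeq2 called 4 of the 9 and 6 of the other pathway genes (7.69% of all genes), and no filter on low counts gave 2 and 1 (1.19%). The fit of all 12 libraries (0.426%) and limma on log2(TPM + 1) and log2(TPM + 0.1) (0.0629% and 0.132%) gave 0 of the 9. Leaving out libraries gave 0 to 8 of the 8 genes other than FANCD2, with 8 without siControl replicate 1 (24.4% of all genes called). It gave 0 of these 8 without siControl replicate 2 or any double knockdown library (at most 0.0113% of all genes). Of the other pathway genes 0 to 33 were called, with 33 without siControl replicate 1. Against siYAP, DESeq2 called 0 of the 8 genes other than FANCD2 and 1 of the other pathway genes (4.49% of all genes). Leave-outs there gave 0 to 8 of the 9, with FANCD2 counted as a description, and 0 to 22 of the other pathway genes. Both were highest without siYAP replicate 1, where 16.5% of all genes were called. Against siNELFA, leave-outs gave 0 to 1 of the others (1 without siNELFA replicate 1, where 1.25% of all genes were called). Each lone or reduced group was assumed to vary like the other groups.

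Signs changed in the double knockdown against siNELFA for BRCA1 (block 0.0029, TPM + 1 0.27, TPM + 0.1 0.31), BRCA2 (TPM -0.15 and -0.17) and BRIP1 (block 0.016, TPM 0.048 and 0.062). There the leave-outs ran from -0.37 to 0.12 for FANCD2, -0.23 to 0.24 for FANCI, -0.18 to 0.24 for FANCA, -0.41 to 0.24 for BRCA1, -0.10 to 0.13 for PALB2, -0.26 to 0.34 for BRCA2, -0.36 to 0.17 for BRIP1 and -0.29 to 0.20 for BLM. In siYAP against siControl they ran from -0.39 to 0.073 for FANCI, -0.39 to 0.18 for FANCA, -0.40 to 0.13 for BRCA1, -0.29 to 0.011 for PALB2 and -0.52 to 0.0021 for BLM. In the double knockdown against siYAP they ran from -0.42 to 0.066 for FANCA and -0.22 to 0.079 for PALB2, and in siNELFA against siYAP from -0.47 to 0.035 for FANCA and -0.26 to 0.056 for PALB2. Interaction terms ran from -0.13 to 0.50 for FANCD2, -0.085 to 0.45 for FANCI, -0.12 to 0.44 for FANCA, -0.13 to 0.37 for FANCM, -0.33 to 0.37 for BRCA1, -0.14 to 0.72 for BRCA2 and -0.11 to 0.57 for BRIP1. The cause of these changes was not tested.

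Intervals are limited by 3 libraries per group and by depth, with 127 reads for FANCM in the shallowest case.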

Other observations

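The genes whose normalized counts followed FANCD2 most closely over the 12 libraries, among 12962 genes averaging at least 50 counts, were CDCA7L, a MYC-interacting nuclear protein (Pearson's r = 0.974), the spindle motor KIF11 (0.960), the RNA helicase DDX50 (0.959), the zinc finger gene ZNF100 (0.958) and the DNA damage mediator MDC1 (0.955). These are correlations across libraries that share groups and the shift of replicate 1, and they are given as a description. Over the 8 libraries without replicate 1 the closest were NONO (0.993), MYH10 (0.993), PLAC8 (0.993), SKA1 (0.993) and ZC3H14 (0.992), and 0 genes were among the first 5 both times. Of the other members, BRIP1 (0.834), FANCM (0.827) and BRCA1 (0.821) were closest to FANCD2 over the 12 libraries, and FANCA (0.441) was farthest.

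In the blocked comparison of siNELFA with siYAP, 5 of 37 genes of other repair pathways were called lower and 1 higher. Of all 17257 genes, 7.44% were called lower and 2721 (15.8%) were called in either direction. Whether the share in this list differs from that over all genes was not tested. DDB2, a damage sensor of nucleotide excision repair, was lower in siNELFA by -0.81 on the log2 scale (adjusted p = 0.000525, edgeR), as were TP53BP1 of end joining (-0.32, adjusted p = 0.00992), the mismatch repair gene MSH6 (-0.33, adjusted p = 0.0101), PARP1 (-0.30, adjusted p = 0.0167) and ERCC5 (-0.35, adjusted p = 0.0353). The helicase gene ERCC2 was higher (0.44, adjusted p = 0.00267). In the double knockdown against siControl, 2 genes of the mitotic list fell without the block, where 0.428% of all genes were called. They were KIF11 (-1.06, adjusted p = 0.0372, edgeR) and the cytokinesis gene ANLN (-0.89, adjusted p = 0.0362). Neither passed with the block (adjusted p = 0.194 for both).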
